A study of Mus musculus with 6 samples.

Results

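The E protein transcription factors, the Id proteins that inhibit them and the ubiquitin ligase receptors Asb2 and Skp2 were followed in BaF3 cells, a mouse cell line that needs interleukin-3 to grow. The 8 genes were the Id genes Id1, Id2 and Id3, the E protein genes Tcf3, Tcf4 and Tcf12, and Asb2 and Skp2, taken by symbol from 18946 genes in the deposited tables. Asb2 and Id2 were chosen for their rise in cells given the mutated Notch1 construct CTdel, so their values in comparisons with CTdel are a description and carry no test. The other 6 genes were taken for their place in the same pathway.

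E proteins are basic helix-loop-helix factors that bind E-box sites in DNA as dimers and switch on the genes of early B and T lymphocytes. Id proteins have the helix-loop-helix but lack the basic region, so an E protein paired with an Id protein cannot bind DNA. Asb2 is the substrate receptor of a ligase built on Cul5 and Skp2 that of a ligase built on Cul1. Both have been linked to the breakdown of E proteins in lymphocytes with active Notch, where Asb2 is described as a Notch target. Protein levels were not measured here.

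Cells were kept in medium with 10% serum and interleukin-3 at 2 ng/mL, nucleofected with plasmid and sorted 24 h later for RNA. The con group received the plasmid pmax-Clover, which encodes a green fluorescent protein. The ICN group received pmax-Clover-ICN, with the intracellular part of Notch1, and the CTdel group received pmax-Clover-CTdel, the mutated form, whose change is not given in the sources used here. All groups thus share Clover and the nucleofection, and each had 2 libraries, numbered 1 and 2. Levels are FPKM, fragments divided by transcript length and by the size of the library, which can be compared between genes since they are per length. Each replicate number came in a table of its own, so changes were taken within a table, as differences of log2(FPKM + 1). They were tested with limma over 11050 genes with Benjamini-Hochberg adjustment, and a gene was called at an adjusted p under 0.05. Whether the replicates were separate cultures is not stated in the labels, and the p-values cover only the spread of these libraries, which may be technical. A fit without 1 library leaves 1 in its group, so its p-values hold no spread within that group.

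For Notch1 the con libraries had FPKM 0.89 and 1.72 (replicates 1 and 2), the ICN libraries 190 and 888, and the CTdel libraries 84.9 and 25.4. Its log2 change was 7.51 in ICN and 4.39 in CTdel, with a standard error of 0.84 (limma adjusted p = 0.103 and 0.0947). The transfected gene itself was thus not called against con. FPKM was higher in ICN than in CTdel, but how much of the Notch1 sequence the CTdel plasmid holds is not given in the sources used here, so the constructs cannot be compared per molecule. FPKM summed to between 489693 and 507894 per library, and read totals are unknown. The label calls the line pro-B, but of 10 pro-B markers only Cd79b, a chain of the B-cell receptor, had a mean FPKM of at least 1 in con. The summed FPKM of that list was 4.22 to 5.85 in con, 7.78 to 8.55 in ICN and 10.0 to 19.1 in CTdel. The 9 myeloid markers summed to 110 to 163 in con, 215 to 368 in ICN and 627 to 651 in CTdel, and the higher sum in CTdel came mostly from Spi1 and Tyrobp. Of the 9, 5 had both CTdel libraries above both con libraries (Spi1, Tyrobp, Cd68, Itgam and Csf1r) and 4 did not. CTdel and con did not overlap for 41.8% of all tested genes, counting rises and falls. Adgre1, Lyz2 and Mpo overlapped between con and CTdel, and Elane, a protease of neutrophil precursors, was listed at 0 in both groups. The 6 mast cell and basophil markers with values summed to 199 to 267 in con, 81.1 to 115 in ICN and 63.6 to 79.7 in CTdel. Most of each sum was Gata2, with FPKM 238 and 192 in con, 104 and 78.0 in ICN, and 74.7 and 61.75 in CTdel. Cpa3 and Cma1 were also lower in CTdel than in con, and Kit, Fcer1a and Mcpt8 were at or under FPKM 0.11. The 9 T-cell markers stayed at or under 3.49 in every library. In bulk RNA, a change in the share of cells of a type and a change of RNA per cell cannot be told apart.

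The start regions of Asb2 and Id2 are shown because these genes were chosen for their rise in CTdel. Both windows run from 250 bases before to 50 bases after the RefSeq start site, in GRCm38.p6, on the minus strand. The Asb2 window, chr12:103355952-103356251, belongs to the start of NM_023049, the transcript of the deposited tables, which has 10 exons. The Id2 window, chr12:25096043-25096342, belongs to the start of NM_010496, which has 3 exons. Capitals mark E-boxes, the sites of E proteins and other helix-loop-helix factors.
Asb2: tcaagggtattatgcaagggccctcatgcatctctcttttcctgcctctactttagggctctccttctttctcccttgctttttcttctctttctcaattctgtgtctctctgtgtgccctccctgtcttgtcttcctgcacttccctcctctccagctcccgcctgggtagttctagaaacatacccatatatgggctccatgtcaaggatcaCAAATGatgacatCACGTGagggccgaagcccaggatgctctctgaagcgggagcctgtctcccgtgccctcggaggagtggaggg
Id2: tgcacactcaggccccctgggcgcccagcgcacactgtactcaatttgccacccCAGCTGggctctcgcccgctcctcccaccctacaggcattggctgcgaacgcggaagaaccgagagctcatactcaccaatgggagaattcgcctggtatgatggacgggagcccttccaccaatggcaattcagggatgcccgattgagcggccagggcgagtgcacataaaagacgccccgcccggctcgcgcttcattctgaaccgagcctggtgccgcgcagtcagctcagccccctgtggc
The E-box was searched as CANNTG, which reads the same on both strands. The Asb2 window held 2, CAAATG and CACGTG, whose first bases lie 36 and 23 bases before the start site. The Id2 window held 1, CAGCTG, beginning 196 bases before it. A second RefSeq start of Asb2, at chr12:103338341-103338640 for the same kind of window, also held 1 E-box. E-boxes were present in 72.3% of 32851 RefSeq start windows of this length. TGGGAA, the core of the site bound by RBPJ, the DNA-binding partner of Notch, was searched on both strands and was in neither window above nor at the second Asb2 start, against 25.6% of all windows. A match or its absence in these letters says nothing on binding.

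Among the inhibitors, Id1 was the most abundant in con and Id3 was near 0. Id1 (Gene ID 15901, chromosome 2, 152736251 to 152737410) had FPKM 85.3 and 176 in con, 38.8 and 20.4 in ICN, and 77.5 and 156 in CTdel. Both ICN libraries lay below all libraries of the other groups, while con and CTdel overlapped, and in each replicate CTdel was within 1.13-fold of con. The level in ICN was 2.2-fold lower than in con in replicate 1 and 8.62-fold lower in replicate 2. The log2 change was −2.08 with a standard error of 0.50 (limma adjusted p = 0.193), so it did not pass over all genes. Without ICN replicate 1 it was −3.04 and without ICN replicate 2 it was −1.13. With con and ICN fitted alone the change was the same (limma adjusted p = 0.048). Leaving out either CTdel library is in effect that same fit, since the CTdel library that remains adds no spread.

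Id2 (Gene ID 15902, chromosome 12, 25093799 to 25096092), which is best known from innate lymphoid and myeloid cells, had FPKM 25.2 and 10.6 in con, 68.0 and 19.0 in ICN, and 245 and 167 in CTdel. Both CTdel libraries lay far above the other 4, and the con and ICN libraries overlapped, although ICN was above con within each table. The ratio of CTdel to con was 9.72 in replicate 1 and 15.8 in replicate 2, which is the rise the gene was chosen for. In con Id2 had a higher FPKM than 69.0% and 42.7% of tested genes, and in CTdel than 97.7% and 96.5%. ICN stood 2.7-fold and 1.79-fold above con, with a log2 change of 1.09 and a standard error of 0.32 (limma adjusted p = 0.247). Without ICN replicate 2 that change was 1.55, and without ICN replicate 1 it was 0.63. Without the table as a replicate block its unadjusted p was 0.119 (adjusted p = 0.459). ICN and CTdel were set against the same con libraries, so these comparisons are not independent. The summed level of the myeloid markers, though not each of them, was also higher in CTdel, and its part in the Id2 level was not tested.

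Id3 was read from the table of replicate 2 alone, where it was listed at 0 in con and ICN and at 0.11 in CTdel, and it was not tested.

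**Figure D1:**
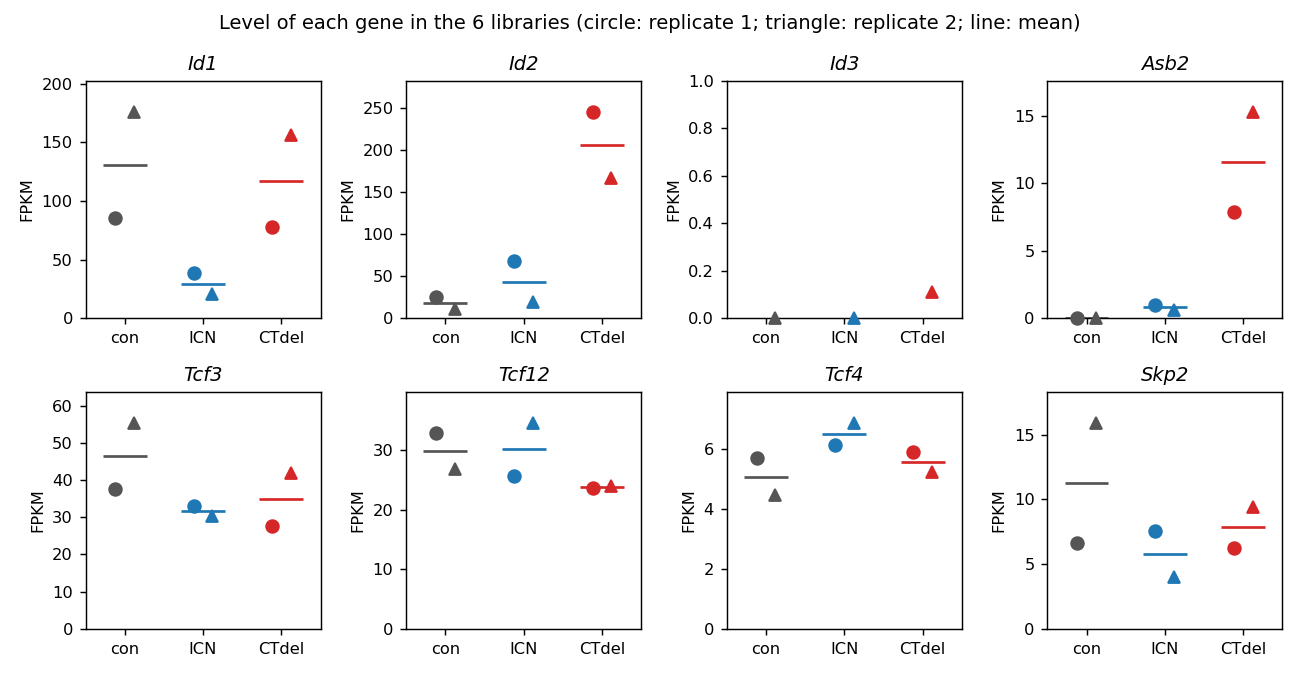
FPKM of the 8 genes by group, with a circle for replicate 1, a triangle for replicate 2 and a line at the mean. Each panel has its own linear axis from 0. The Id1 points of ICN lie below those of con and CTdel, the Id2 and Asb2 points of CTdel lie above all others, and Id3 has values of replicate 2 only.

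The 2 inhibitors that were expressed took different shares of the Id transcripts. Id2 over Id1 was 0.296 and 0.0601 in con, 1.76 and 0.929 in ICN, and 3.16 and 1.07 in CTdel. The ratio was thus above con in all 4 libraries with a Notch1 construct, through less Id1 and somewhat more Id2 in ICN and through more Id2 at a similar Id1 level in CTdel. Id1, Id2 and Id3 summed to FPKM 110 and 187 in con, 107 and 39.4 in ICN, and 323 and 323 in CTdel. The ICN sum was close to that of con in replicate 1 and below it in replicate 2. The 3 E protein genes summed to 76.1 and 86.6 in con, 64.9 and 71.7 in ICN, and 57.3 and 71.3 in CTdel. Per library, Id transcripts were 1.45 and 2.15 times the E protein transcripts in con, 1.64 and 0.549 times in ICN, and 5.63 and 4.53 times in CTdel. These sums carry no test, since Id2 was chosen for its value in CTdel.

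**Figure D2:**
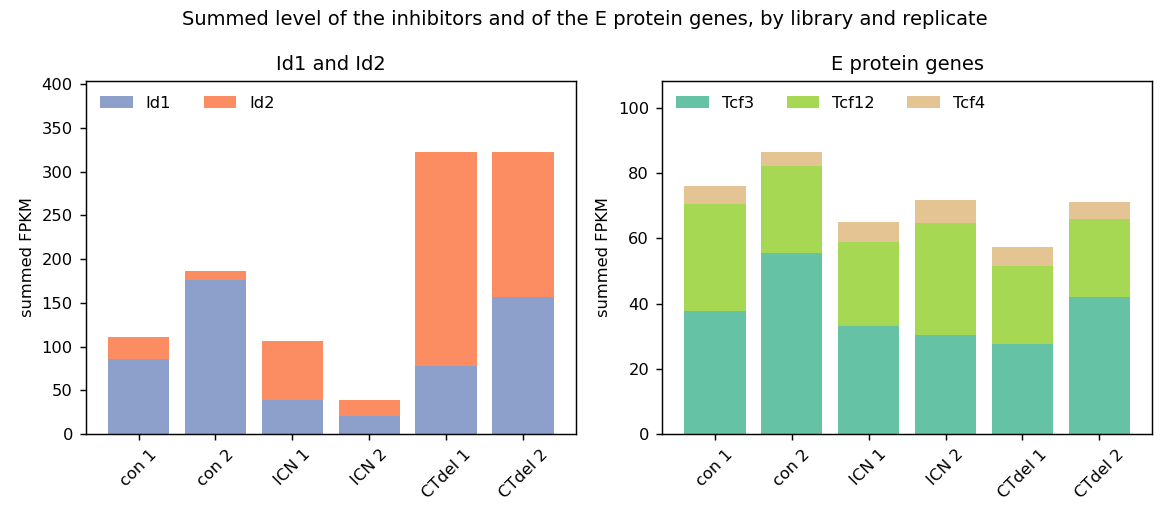
Summed FPKM of Id1 and Id2 (left) and of Tcf3, Tcf12 and Tcf4 (right) in each library, as stacked bars from 0. Both CTdel bars on the left reach 323, with Id2 as the larger part, while the bars on the right run from 57.3 to 86.6.

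None of the 3 E protein genes was called by limma in any comparison, and 0 had an unadjusted p under 0.05. Few genes were called at all, namely 0.0362% in ICN against con, 1.41% in CTdel against con and 0.0181% in CTdel against ICN. An unadjusted p under 0.05 was found in 15%, 11.8% and 7.13% of all genes. Tcf3 (Gene ID 21423, chromosome 10, 80409541 to 80433976), which encodes the E proteins most needed by early B cells, had FPKM 37.6 and 55.4 in con, 33.1 and 30.2 in ICN, and 27.7 and 42.0 in CTdel. Both ICN libraries were below both con libraries, and CTdel overlapped both groups. Its log2 change was −0.52 in ICN and −0.41 in CTdel, each with a standard error of 0.25 (limma adjusted p = 0.391 and 0.645). Tcf3 was lower than con within each table in both groups.

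Tcf12 (Gene ID 21406, chromosome 9, 71844252 to 72111893), the E protein gene that acts beside Tcf3 in thymocytes, had FPKM 32.8 and 26.8 in con, 25.7 and 34.6 in ICN, and 23.7 and 24.1 in CTdel. Both CTdel libraries lay below the other 4, and con and ICN overlapped. The log2 change was 0.01 in ICN and −0.30 in CTdel, with a standard error of 0.24 (limma adjusted p = 0.988 and 0.73). The ICN mean joined a lower value in replicate 1 (log2 change −0.34) and a higher one in replicate 2 (0.36).

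Tcf4 (Gene ID 21413), the E protein gene of plasmacytoid dendritic cells, was the least abundant of the 3, with FPKM 5.67 and 4.45 in con, 6.11 and 6.86 in ICN, and 5.89 and 5.23 in CTdel. The ICN libraries lay above both other groups, which overlapped. The log2 change was 0.31 in ICN and 0.12 in CTdel, with a standard error of 0.22 (limma adjusted p = 0.516 and 0.896). In con the means ran Tcf3 46.5 ± 12.6, Tcf12 29.8 ± 4.27 and Tcf4 5.06 ± 0.863 (SD, n = 2). Tcf3 and Tcf12 were not in a fixed order, since Tcf12 had the higher FPKM in ICN replicate 2 and Tcf3 in the other 5 libraries. The tables give 1 value for the 8 transcripts of Tcf3, the 5 of Tcf12 and the 2 of Tcf4, so isoforms are not separated.

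Asb2 (Gene ID 65256, chromosome 12, 103321142 to 103356001) was listed at 0 in both con libraries. Its FPKM was 1.0 and 0.64 with ICN, and 7.86 and 15.3 with CTdel. The groups did not overlap, and the order was con, ICN, CTdel in each table. No ratio to con is given, since con is at 0 and read counts are unknown. The mean log2 change in CTdel was 3.59, and the changes in the replicates were 3.15 and 4.02. In ICN it was 0.86 with a standard error of 0.34 (limma adjusted p = 0.325). Asb2 was in this test only because its CTdel libraries took it past the filter on low genes, since of the con and ICN libraries only 1 reached FPKM 1, so nothing is read from that p. With a pseudocount of 0.1 the values were 6.79 for CTdel and 3.17 for ICN (adjusted p = 0.142 for ICN), so their size is set by the pseudocount. CTdel was 7.86-fold above ICN in replicate 1 and 23.9-fold in replicate 2. How far the level of the construct enters this difference was not tested. The part of the higher myeloid sum in the Asb2 level was not tested either.

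Skp2 (Gene ID 27401, chromosome 15, 9111982 to 9155425), whose ligase also removes the cell cycle inhibitor p27, had FPKM 6.66 and 15.9 in con, 7.55 and 4.00 in ICN, and 6.26 and 9.44 in CTdel. All 3 groups overlapped, and the con libraries differed by more than the group means did. The log2 change was −0.80 in ICN and −0.39 in CTdel, with a standard error of 0.45 (limma adjusted p = 0.43 and 0.83). In ICN it was −1.60 without ICN replicate 1 (adjusted p = 0.00984) and 0.00 without ICN replicate 2 (adjusted p = 0.999). It was −1.44 without con replicate 1 (adjusted p = 0.178) and −0.17 without con replicate 2 (adjusted p = 0.958), so its size rested on single libraries of both groups.

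**Figure D3:**
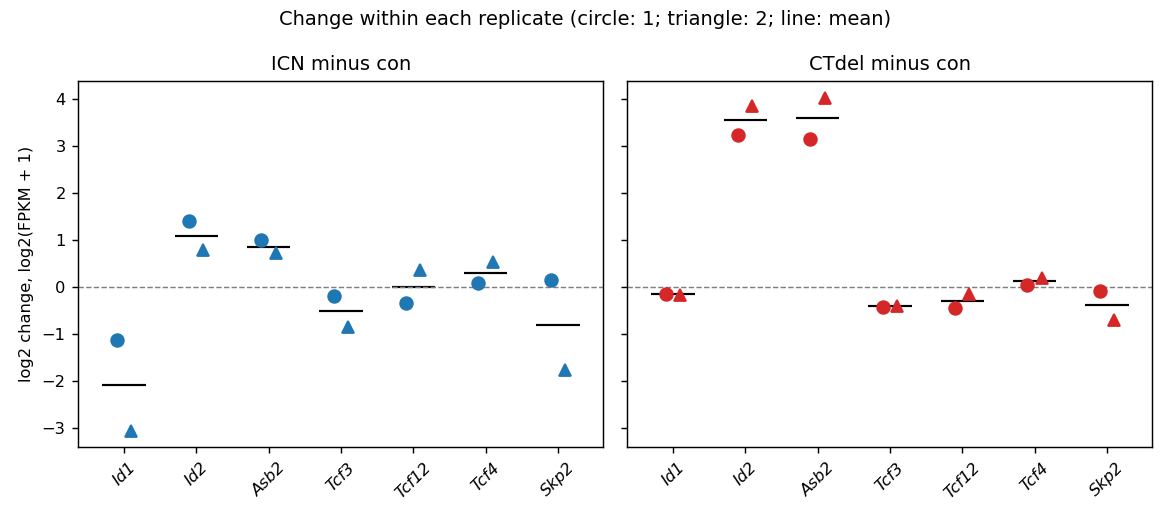
Change against con on the log2(FPKM + 1) scale within replicate 1 (circles) and replicate 2 (triangles) for the 7 tested genes, with a line at the mean. Id2 and Asb2 lie above 3 in both replicates of CTdel, Id1 lies below −1 in both replicates of ICN, and the E protein genes lie within 1 of the dashed line at 0.

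Asb2 and Id2 were chosen for a rise over the same con libraries and are left out of the counts over the 7 tested genes. Of the other 5 tested genes 0 were called in ICN against con by limma, where 0.0362% of all genes were called. Among these 5, 1, Id1, had an unadjusted p under 0.05 in ICN against con, where 15% of all genes had one. Libraries of ICN and con did not overlap for 3 of the 5 (Id1, Tcf3 and Tcf4), against 42.3% of all genes. In CTdel against con, where 1.41% of all genes were called, Asb2 and Id2 carry no test. Of the other 5 tested genes 0 were called there and 0 had an unadjusted p under 0.05, against 11.8% of all genes. The groups did not overlap for 1 of the 5, Tcf12, against 41.8% of all genes.

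Between the constructs, Id1 had the largest difference of the genes that were not chosen on CTdel. It was 2-fold higher in CTdel than in ICN in replicate 1 and 7.65-fold in replicate 2, with a log2 difference of 1.93 and a standard error of 0.50 (limma adjusted p = 0.575). Without ICN replicate 1 the difference was 2.89, and without ICN replicate 2 it was 0.97. For Skp2 the log2 difference was 0.41 (adjusted p = 0.826), and it was 1.22 without ICN replicate 1 and −0.39 without ICN replicate 2. The E protein genes had log2 differences from −0.31 (Tcf12) to 0.11 (Tcf3), with adjusted p of 0.756 and 0.924. Of the 5 tested genes not chosen on CTdel, 0 were called, against 0.0181% of all genes, and 1, Id1, had an unadjusted p under 0.05, against 7.13%. The libraries of CTdel and ICN did not overlap for 3 of these 5 (Id1, Tcf4 and Tcf12), against 40.6% of all genes. For Id2, as a description, CTdel was 3.61-fold and 8.79-fold above ICN in replicates 1 and 2.

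Genes around these factors were read from 6 lists. Over all tested genes the share with an unadjusted p under 0.05 was 15% in ICN against con, 11.8% in CTdel against con and 7.13% in CTdel against ICN. In CTdel against con 1.41% were called, 144 of the 156 in the direction of a rise. Of the partners of E proteins and their LIM-domain cofactors 8 of 15 were tested and 0 were called in any comparison, with 1 at an unadjusted p under 0.05 in ICN against con, 2 in CTdel against con and 0 in CTdel against ICN. Their median log2 change was −0.24 in ICN (0.00 over all tested genes) and −0.20 in CTdel (−0.06 over all). Tal1, a helix-loop-helix factor of blood stem cells and red cells that pairs with E proteins, had FPKM 94.4 and 83.9 in con, 53.3 and 54.2 in ICN, and 36.9 and 39.9 in CTdel. The groups did not overlap in Tal1, and the log2 change in CTdel was −1.19 with a standard error of 0.20 (limma adjusted p = 0.0632). It was called without the table as a replicate block (adjusted p = 0.048) and with only the con and CTdel libraries (0.00536). Leaving out an ICN library is in effect that second fit. Without a filter on low genes it was not called (0.146). With a con or CTdel library left out it was not called either, and the change ran from −1.31 to −1.075. Ssbp3, which stabilises complexes of the cofactor Ldb1, had a log2 change of −0.68 in CTdel (adjusted p = 0.295).

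Genes that E proteins are known to activate in early lymphocytes were low. Of 20 such genes 3 were tested, Cd79a, Cd79b and Ptcra, and Ebf1, Rag1, Rag2 and Il7r stayed at or under FPKM 0.08 in all 6 libraries. None of the 3 was called by limma in any comparison, and 2 had an unadjusted p under 0.05 in each. Over all genes the called share was 0.0362% in ICN against con, 1.41% in CTdel against con and 0.0181% in CTdel against ICN. The share with such an unadjusted p was 15%, 11.8% and 7.13%. Ptcra, which encodes the partner of the beta chain in immature T cells, had FPKM 1.47 and 1.37 in con, 4.12 and 4.95 in ICN, and 1.52 and 0.98 in CTdel. Its libraries of ICN lay above all others, and the log2 difference of CTdel from ICN was −1.31 with a standard error of 0.25 (adjusted p = 0.372). Without ICN replicate 1 it was −1.52, without ICN replicate 2 −1.10 and without CTdel replicate 2 −1.09. Cd79b had FPKM 3.62 and 4.32 in con, 6.36 and 4.34 in ICN, and 8.30 and 13.4 in CTdel. Its log2 change in CTdel was 1.22 with a standard error of 0.30 (adjusted p = 0.165), and the adjusted p was 0.0101 with only the con and CTdel libraries. Leaving out an ICN library is in effect that same fit. Cd79b was not called when a con or CTdel library was left out, and without CTdel replicate 2 the change was 0.84.

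Of the Asb family, whose members are receptors of like ligases, only Asb2 was picked here on its values. Of 17 other family members 7 were tested and 0 were called by limma in any comparison, with 1, Asb1, at an unadjusted p under 0.05 in ICN and 0 in the other comparisons. Their log2 changes in CTdel ran from −0.30 to 0.22, with a median of −0.04. Asb1 had a log2 change of −0.52 in ICN (adjusted p = 0.323) and Asb6 one of 0.48 (adjusted p = 0.362). The listed subunits and regulators of the ligases of Asb2 and Skp2 were all expressed. All 10 were tested and 0 were called by limma, with 1 at an unadjusted p under 0.05 in ICN against con (15% of all genes), 0 in CTdel against con (11.8%) and 1 in CTdel against ICN (7.13%). Cul5, the cullin of the Asb2 ligase, had FPKM 17.6 and 13.6 in con, 13.8 and 13.2 in ICN, and 12.5 and 10.3 in CTdel (log2 change −0.42 in CTdel, adjusted p = 0.533). Cks1b, the cofactor by which Skp2 recognises p27, had FPKM 113 and 138 in con, 85.0 and 51.6 in ICN, and 106 and 117 in CTdel. Both of its ICN libraries lay below the other 4, as for Id1, with a log2 change of −0.90 in ICN (adjusted p = 0.275) and −1.36 without ICN replicate 1 (adjusted p = 0.00914). It was −0.45 without ICN replicate 2 (adjusted p = 0.736) and −0.62 without con replicate 2 (adjusted p = 0.698).

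Of the 8 genes for proteins that Asb2 or Skp2 are known to mark for degradation, 7 were tested. In CTdel 1 rose and 0 fell, where 1.41% of all genes were called, mostly upward, and the median log2 change was 0.30 against −0.06 over all genes. In ICN 0 were called by limma, with 3 at an unadjusted p under 0.05 (15% of all genes), and between the constructs 0 were called, with 4 (7.13% of all genes). The gene that rose was Jak2, the kinase of the interleukin-3 receptor and a described target of Asb2, with FPKM 20.3 and 15.2 in con, 48.9 and 34.1 in ICN, and 70.3 and 77.3 in CTdel. Its groups did not overlap, and the log2 change in CTdel was 2.01 with a standard error of 0.24 (adjusted p = 0.0265). The adjusted p was 0.0532 and 0.0639 without con replicates 1 and 2, 0.137 without CTdel replicate 2 and 0.139 without a filter on low genes. These are transcript levels, and degradation acts on the proteins.

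BMP and TGF-beta signals act upstream of Id genes. Of 14 genes of these pathways 8 were tested, 2 rose in CTdel and 0 fell, with a median log2 change of 0.34. Over all genes 1.41% were called there, 144 of 156 upward, and the median was −0.06. In ICN 0 were called by limma, with 3 at an unadjusted p under 0.05 (15% of all genes), and between the constructs 0 were called, with 2 (7.13% of all genes). Smad7, an inhibitor that these signals themselves induce, had FPKM 2.42 and 3.45 in con, 20.9 and 8.27 in ICN, and 28.4 and 36.5 in CTdel (log2 change 3.09 in CTdel, standard error 0.43, adjusted p = 0.0379). Tgfbr1, a TGF-beta receptor, had 10.5 and 8.08 in con, 25.1 and 17.1 in ICN, and 40.6 and 24.2 in CTdel (log2 change 1.67, standard error 0.21, adjusted p = 0.0282). In both genes con lay below the other groups. The adjusted p of Smad7 was 0.0892 without con replicate 1 and 0.0635 with quantile normalization. That of Tgfbr1 was 0.0522 to 0.226 without any 1 of the con or CTdel libraries and 0.0713 without the table as a replicate block. Without a filter on low genes it was 0.242 for Smad7 and 0.139 for Tgfbr1. Smad1, a BMP mediator, stayed at or under FPKM 0.12 in all 6 libraries, and Smad5, from the same list, ran from 9.22 to 11.45.

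**Figure D4:**
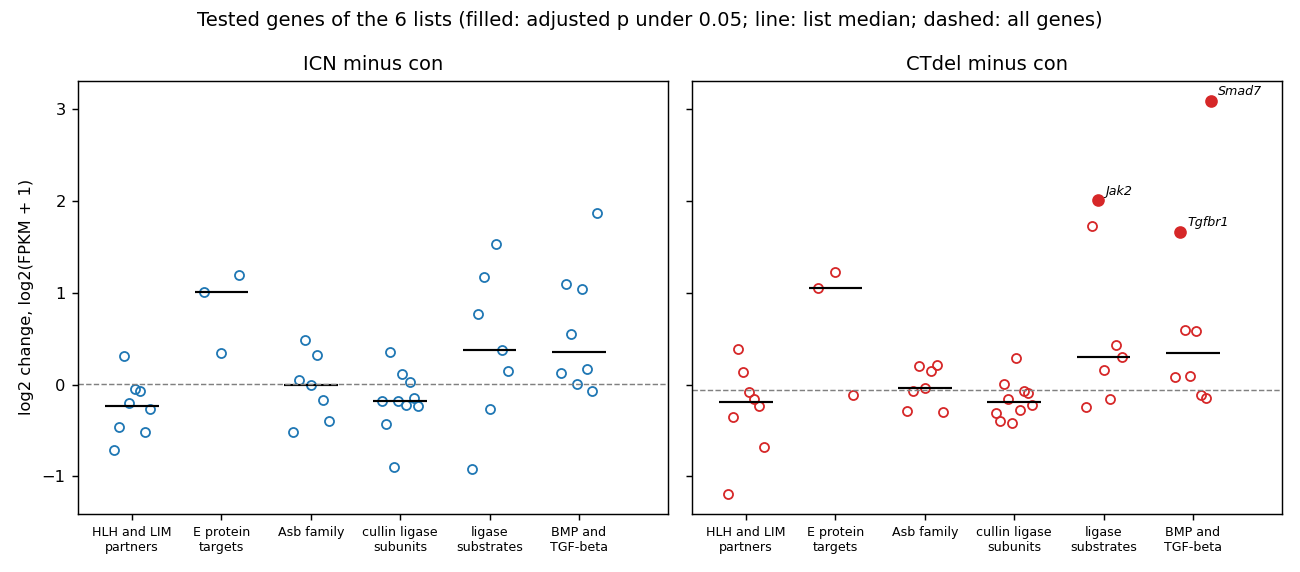
Log2 change against con of the tested genes in the 6 lists, with ICN on the left and CTdel on the right. Filled points are called genes, black lines are list medians and the dashed line is the median of all tested genes, and only Jak2, Smad7 and Tgfbr1 are filled, all in CTdel.

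Profiles over the libraries were compared by Pearson correlation of log2(FPKM + 1) with the mean of each table removed, over 6 libraries, as a description. Asb2 and Id2 correlated at 0.996, which their choice on the same rise favours. The correlation of Asb2 was 0.25 with Id1, −0.35 with Tcf3, −0.71 with Tcf12 and −0.08 with Skp2. Among other genes the most like Asb2 were Fryl (0.999), Cd244 (0.998), Zfyve27 (0.998), Tdgf1 (0.998) and Slc39a13 (0.997). Those most like Id2 were Tdgf1 (0.9996), C330007P06Rik (0.999), Tmem134 (0.998), Rnf13 (0.998) and Cd300ld (0.998). Each set was picked for the highest correlations among other tested genes with a mean FPKM of at least 1, over only 6 libraries. Values this near 1 are therefore no test of a link. Tdgf1, a co-receptor of Nodal signals, was at 0 in con and had FPKM 0.99 and 0.56 with ICN and 4.37 and 7.32 with CTdel. Zfyve27 had FPKM 15.2 and 11.1 in con, 19.6 and 13.1 in ICN, and 42.6 and 42.1 in CTdel. The measure reads the shape and not the size of a change, since Tmem134 ran only from 25.6 to 34.6.

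**Figure D5:**
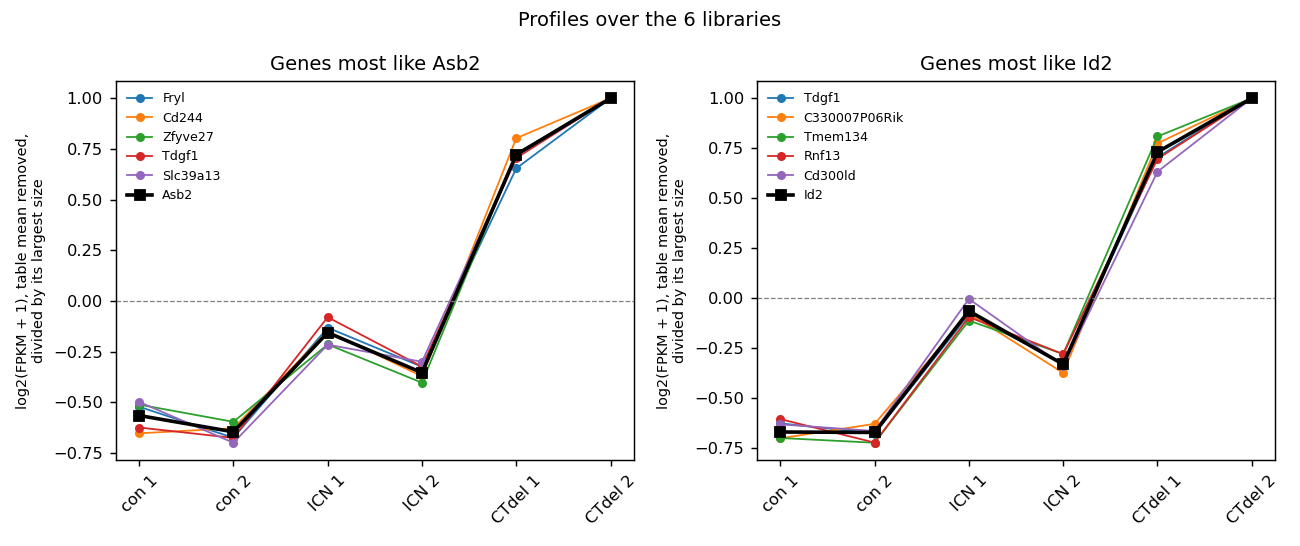
Profiles of Asb2 (left) and Id2 (right) in black with the 5 genes most like each, as log2(FPKM + 1) with the table mean removed and divided by the largest size of each gene. Lines join the points of a gene to guide the eye, and all genes are lowest in con and highest in CTdel.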

How the data were processed

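Polyadenylated RNA of 6 BaF3 libraries, 2 per group, was prepared with an MGIEasy kit, per the labels' protocols. HISAT2, Bowtie2, RSEM, mm10 and hg19 appear in the submitters' processing notes, without roles. FPKM per gene, as deposited by the authors, came in 2 tables, 1 per replicate number, joined here by Gene ID. Coordinates and start windows (of 6 of the 8 members) are from RefSeq for GRCm38.p6, the assembly behind mm10, and exon counts from GENCODE.

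A gene was tested if both tables held it and 2 or more libraries had FPKM of 1 or more, which left 11050 genes and 7 of the 8 members. The limma model (3.58.1, R 4.3.3) held the 3 groups and the table, with an intensity trend, 2-sided, on 2 residual degrees of freedom and a median prior of 3.82. Across genes, deviations of same-numbered libraries correlated at −0.10 (con and ICN), 0.33 (con and CTdel) and 0.24 (ICN and CTdel). On simulated data with 200 of 11050 genes changed, changes of 2 on the log2 scale were called in 50%, 58% and 46% of genes (ICN against con, CTdel against con, CTdel against ICN), and changes of 1 in 0%, 0% and 2%. Read totals are unknown. The step of low values in small RNA genes put the depth at 0.962 to 1.08 times that of con replicate 1. This is rough, since in the other libraries only 12 to 16 of 33 gene lengths came within 2% of it. Genes above FPKM 0 numbered 14951 and 14981 in con, 16413 and 16946 in ICN, and 15822 and 15599 in CTdel (replicates 1 and 2).

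The members and lists were chosen with earlier results of these data known. Named were all members, Notch1, the called genes of each list or its 2 with the smallest p, and the 5 genes most like Asb2 and Id2. A gene that this rule names is not reported here. Ebf1, Rag1, Rag2, Il7r, Smad1, Smad5, Cd79a and the named markers were picked after their values were seen. Alternatives were no table term, a pseudocount of 0.1, no filter, a common FPKM sum, quantile normalization, no trend, only the groups compared, and each library left out.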

Additional observations from a re-analysis of the deposited data

How the results depend on the processing

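The genes called over all genes were 4 in ICN against con, 156 in CTdel against con and 2 in CTdel against ICN. Without a filter on low genes there were 0 in each, with only the 4 libraries compared 162 in ICN and 730 in CTdel against con, and with a pseudocount of 0.1 there were 0 in CTdel against ICN. Leaving out 1 library gave 11 to 1470 in ICN against con, 109 to 731 in CTdel against con and 2 to 891 in CTdel against ICN, with 1470 and 891 without ICN replicate 1 and 731 without ICN replicate 2. A library left alone in its group is taken to vary as the other groups do. Without the table as a replicate block the counts were 3, 130 and 2, and no call of a member changed. Of 273 values of members under 13 alternatives, 11 changed direction, all of them changes that had not passed. In ICN against con, Tcf12 was −0.023 with quantile normalization, and with 1 library left out it ran from −0.262 to 0.283 and Skp2 from −1.605 to 0.004, both ends being without an ICN library. In CTdel against con, leaving out 1 library gave −0.645 to 0.338 for Id1, −0.026 to 0.265 for Tcf4 and −1.022 to 0.247 for Skp2, where the ends are without a con library. In CTdel against ICN it gave −0.239 to 0.452 for Tcf3 and −0.391 to 1.217 for Skp2, where the ends are without an ICN library. Another 8 values passed the threshold, and their changes are given above. Apart from the fit of con and ICN alone, each came from a fit with 1 library in a group. The cause of these moves was not tested. FPKM without read totals give no detection limit, so the values of Asb2 and Id3 near 0 cannot be told from sampling of few reads.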
